A study of Mus musculus with 6 samples.

Results

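The miR-29 family was measured in exosomes of RAW 264.7 cells, a mouse macrophage line. Its members here are 5 mature miRNAs, mmu-miR-29a-3p, mmu-miR-29b-3p, mmu-miR-29c-3p, mmu-miR-29a-5p and mmu-miR-29b-1-5p, taken by name from the 1881 mouse miRNAs on the array. LPS, a bacterial lipopolysaccharide that activates macrophages through TLR4, was given at 2 µg/mL in complete medium, and the culture supernatant was taken after 72 h. The control exosomes came from RAW 264.7 cells described as normal. Their incubation time is not recorded, so LPS and time in culture cannot be told apart. Vesicles were isolated by size exclusion, and their RNA was hybridised to 6 one-colour Agilent miRNA arrays, 3 from LPS exosomes and 3 from control exosomes. The labels do not state whether the replicates are separate cultures, and the p-values may therefore reflect technical spread alone. More vesicles and more miRNA per vesicle cannot be told apart in such samples. The number of arrays limits the precision.

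Mature miRNAs guide Argonaute proteins to messenger RNAs that pair with their seed, bases 2 to 8. The 3p arms are the guide strands of the miR-29 hairpins and share 1 seed, so they have largely the same predicted targets. Known targets include collagens and other matrix proteins, the DNA methyltransferases Dnmt3a and Dnmt3b, and the survival protein Mcl1. The 5p arms are the passenger strands, which are usually degraded. In other systems NF-κB, Myc and TGF-β signalling lower miR-29 transcription, and miR-29a in vesicles shed by tumour cells has been described as a ligand of mouse TLR7. All 5 members had a mature sequence in the RefSeq table of GRCm38.p6. They are shown with the seed in capitals because the seed separates the guide arms from the passenger arms.
miR-29a-3p: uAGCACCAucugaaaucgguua
miR-29b-3p: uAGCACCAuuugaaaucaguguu
miR-29c-3p: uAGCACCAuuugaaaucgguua
miR-29a-5p: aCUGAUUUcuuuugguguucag
miR-29b-1-5p: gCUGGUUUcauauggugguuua

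The guide arms formed a seed group of 3 with the seed AGCACCA, and no other miRNA among the 1608 on the array with a RefSeq mature sequence had it. Each 5p member had a seed of its own, which no other of these miRNAs had. Counted from the 5′ end, miR-29a-3p and miR-29c-3p differ by a single substitution, C10U, with miR-29a-3p as the first-named sequence. miR-29b-3p is 1 base longer and differs from miR-29c-3p by G18A, U21G and A22U, and from miR-29a-3p by these and C10U. In human cells the uracils at bases 9 to 11 of miR-29b and miR-29c have been linked to faster decay than in miR-29a, whose bases there read UCU. The last bases of miR-29b-3p, AGUGUU, have been described in human cells as a signal for nuclear import. Searched on the RNA strand of 1679 mature mouse miRNAs, AGUGUU stood at the 3′ end of 2 (0.119%) and anywhere in 12 (0.715%). Among the 7 arms of the family on the array only miR-29b-3p held it.

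4 hairpins at 2 loci give these arms. In the files' mm9 build the probes of miR-29a and miR-29b-1 lie at chr6:31012676-31013091, and those of miR-29b-2 and miR-29c at chr1:196863252-196863815. miR-29b-3p is made from both loci with the same sequence, miR-29a-3p from chromosome 6 alone and miR-29c-3p from chromosome 1 alone. In the GRCm38.p6 gene table Mir29b-2 and Mir29c lie within the long noncoding RNA gene A330023F24Rik, with Cd46 as a neighbour. Mir29a and Mir29b-1 lie within no other gene of that table, and Lncpint and Gm40359 are the nearest genes that do not overlap them. For the chromosome 6 hairpins, which are on the minus strand, the files place the 3p arm at the higher coordinate and the RefSeq table places it at the lower, so positions of single arms are not given.

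The arrays carry short DNA probes, and each guide arm had 2 of them. These pair with the miRNA from its 3′ end over most or all of its length. The brightest probe of each guide arm is shown, 5′ to 3′, with the base that faces base 10 of the miRNA in capitals, since this is where miR-29a-3p differs from the other guide arms.
miR-29a-3p probe: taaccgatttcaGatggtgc
miR-29b-3p probe: aacactgatttcaAatggtgc
miR-29c-3p probe: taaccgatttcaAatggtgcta
The miR-29a-3p probe had 1 mismatch to miR-29c-3p and 4 to miR-29b-3p. The miR-29c-3p probe had 1 mismatch to miR-29a-3p and 3 to miR-29b-3p. How much of a spot's signal came from another guide arm was not tested.

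The LPS arrays were brighter than the control arrays for most miRNAs, but not for all. Without the scaling described below, 364 miRNAs were called higher and 39 lower in LPS exosomes, of 412 tested. The LPS arrays detected 412 to 446 miRNAs each, against 213 to 228 on the control arrays. The 75th percentile of the processed signal, over the 198 miRNAs detected on all 6 arrays, was 2229 ± 180 on LPS arrays and 477 ± 41.0 on control arrays (SD, n = 3 each, exact permutation p = 0.1, two-sided, the smallest that 3 against 3 arrays allow). The RNAs marked as spike-ins in the files had a geometric mean of 2377 ± 181 on LPS arrays and 2707 ± 83.9 on control arrays (SD, n = 3 each). Each array was therefore divided by its 75th percentile, and log2 values of this scaled signal, with a floor of 9.89, were compared with limma. Of 412 miRNAs tested, those detected on all arrays of at least 1 group, 270 (65.5%) were called higher in LPS exosomes and 110 lower at an adjusted p under 0.05. Among the 198 detected on all 6 arrays, 115 (58.1%) were called higher and 76 lower.

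All 3 guide arms rose in LPS exosomes, by 2.78-fold to 3.16-fold after scaling. They were detected, and well above background, on all 6 arrays, with no saturated spot. Of the 5 members, 4 were tested and these 3 were called higher, beside 65.5% of all tested miRNAs. The share among miRNAs detected on all 6 arrays was 58.1%, so a call of higher in itself was common here.

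mmu-miR-29a-3p, the member made only from the chromosome 6 locus, had a processed signal of 10190, 11867 and 11922 on the LPS arrays, against 727, 788 and 784 on the control arrays. The ratio of the unscaled means was 14.8. After scaling its log2 values were 12.34, 12.35 and 12.37 in LPS exosomes and 10.76, 10.63 and 10.68 in control exosomes. The change was 1.66 on the log2 scale (SE 0.04, 3.16-fold, limma adjusted p = 1.08e-07).

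mmu-miR-29b-3p, made from both loci, had a processed signal of 1220, 1454 and 1483 on the LPS arrays, against 87.3, 107 and 110 on the control arrays, an unscaled ratio of 13.7. Its scaled log2 values were 9.28, 9.32 and 9.36 in LPS exosomes and 7.70, 7.75 and 7.85 in control exosomes. The change was 1.55 (SE 0.05, 2.93-fold, limma adjusted p = 2.79e-07). On the LPS 1 array its spots were less even than elsewhere, with a coefficient of variation of 26.9%. That array also had the highest median spot variation over probes, 10.8%, against 5.17% to 8.03% on the other arrays. Without it the change of miR-29b-3p was 1.57.

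mmu-miR-29c-3p, made only from the chromosome 1 locus, had a processed signal of 1137, 1364 and 1352 on the LPS arrays, against 94.8, 103 and 97.8 on the control arrays, an unscaled ratio of 13.04. Its scaled log2 values were 9.18, 9.23 and 9.23 in LPS exosomes and 7.82, 7.70 and 7.68 in control exosomes. The change was 1.48 (SE 0.05, 2.78-fold, limma adjusted p = 3.14e-07).

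**Figure D1:**
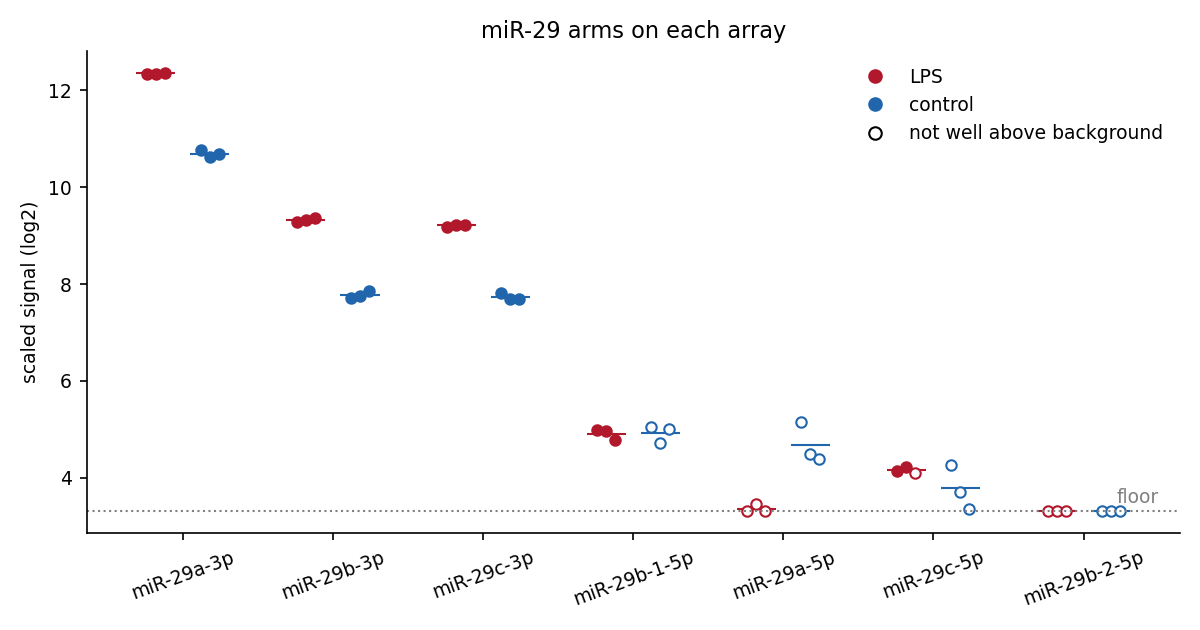
Scaled signal (log2, vertical axis) of the 7 miR-29 arms on each array, LPS in red left of control in blue, with lines at the group means and open circles where the arm was not well above background. The 3 guide arms sit above 9 in LPS exosomes and between 7.68 and 10.76 in control exosomes, each arm higher in LPS exosomes. The 5p arms lie near the floor.

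Read as slide positions, the ends of the scanner outputs' names put LPS 1 and the 3 control arrays in row 1, and LPS 2 and LPS 3 in row 2. The sample titles do not give the row. With the row as a block the changes were 1.65 for miR-29a-3p, 1.51 for miR-29b-3p and 1.44 for miR-29c-3p. Row 2 held no control array, so these changes set LPS 1 alone against the control arrays. Within row 1 alone, with LPS 1 as the only LPS array, they were 1.68, 1.55 and 1.48 in the same order. This is the same comparison, on values scaled over row 1. The size in absolute terms depended on the scaling, since all scaled changes rest on what is taken as constant. Without scaling the changes were 3.88, 3.78 and 3.70, and with quantile normalization 1.33, 1.17 and 1.09. The median change over the miRNAs detected on all 6 arrays moved with them, 0.77 as scaled here, 2.99 without scaling and 0.32 with quantile normalization. Relative to that median the guide arms were higher by 0.89 for miR-29a-3p, 0.79 for miR-29b-3p and 0.71 for miR-29c-3p. Dividing each array by a constant cannot change these distances, but other steps did. For miR-29a-3p the distance was 1.58 with normexp background correction, 1.57 in the authors' value table and 1.72 with the files' gene totals, and for miR-29b-3p it was -1.76 with gene totals.

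Many miRNAs moved further than the guide arms. By the size of the change, higher first, miR-29a-3p was number 93 of the 412 tested, miR-29b-3p number 109 and miR-29c-3p number 116. Among the 198 detected on all 6 arrays they were numbers 40, 47 and 51. The median change over all tested miRNAs was 0.85.

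**Figure D2:**
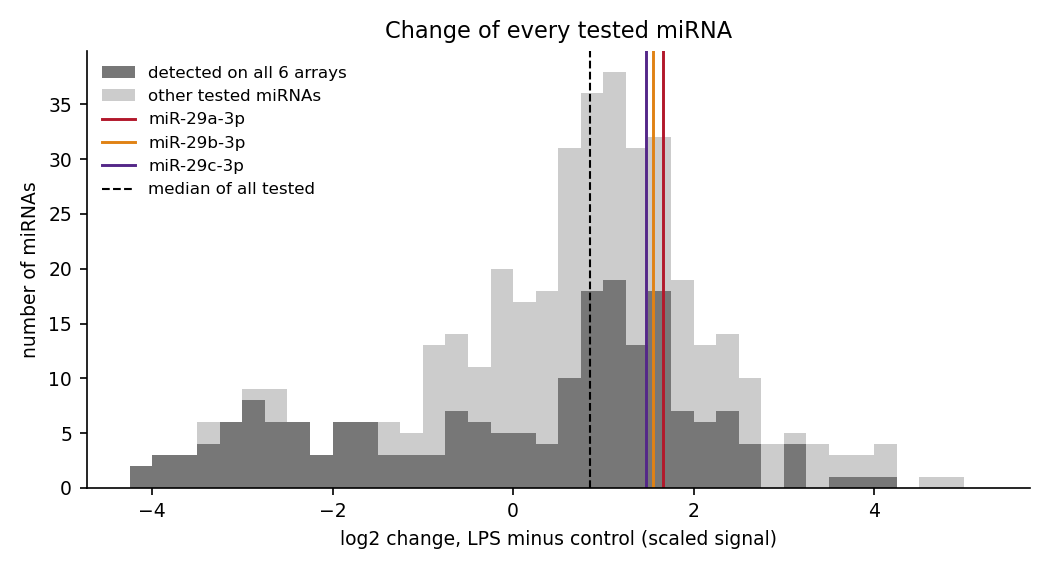
Number of tested miRNAs (vertical axis) by log2 change, LPS minus control (horizontal axis), with the 198 detected on all 6 arrays in dark grey and the others in light grey. The lines of miR-29c-3p, miR-29b-3p and miR-29a-3p at 1.48, 1.55 and 1.66 stand to the right of the median of all tested miRNAs at 0.85, with 92 miRNAs further right than miR-29a-3p.

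Whether the guide arms rose by unequal amounts was asked from differences within an array, in which scaling cancels. The size of such a difference depends on the probes, so only its change between groups is read. The log2 signal of miR-29a-3p exceeded that of miR-29c-3p by 3.16, 3.12 and 3.14 on the LPS arrays, against 2.938, 2.936 and 3.003 on the control arrays. These values did not overlap, and the change was 0.18 (SE 0.03, exact permutation p = 0.1, two-sided, 0.3 after Benjamini-Hochberg adjustment over the 3 pairs). For miR-29a-3p over miR-29b-3p the values were 3.06, 3.03 and 3.01 on the LPS arrays and 3.06, 2.89 and 2.83 on the control arrays, which overlapped. That change was 0.11 (SE 0.07, exact permutation p = 0.3, adjusted 0.45). miR-29c-3p against miR-29b-3p changed by -0.08 (exact permutation p = 0.5, adjusted 0.5). No pair could pass a threshold of 0.05 with 3 arrays a group, so a difference between the arms was not shown, nor was their equality.

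**Figure D3:**
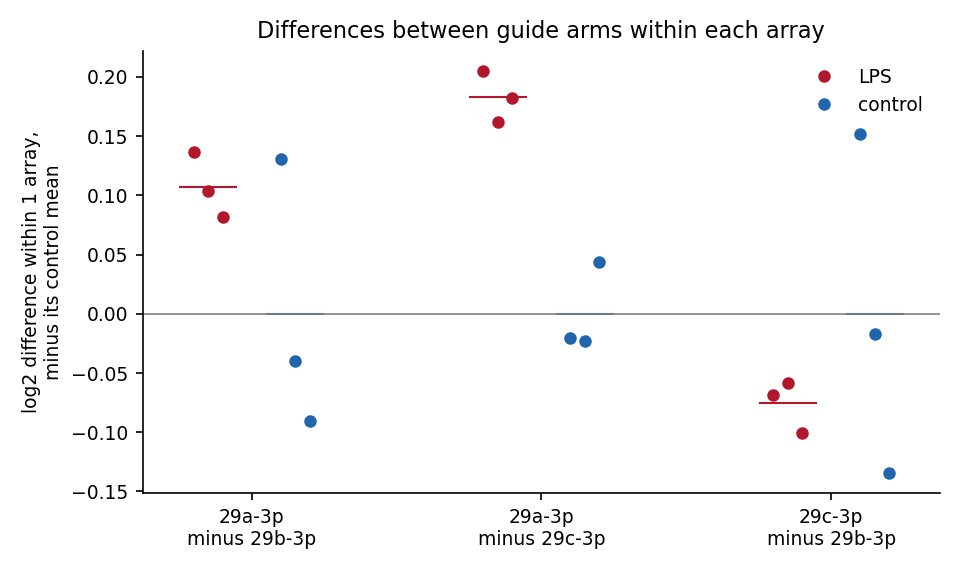
Difference between 2 guide arms within an array, minus its mean over the control arrays (log2, vertical axis), for the 3 pairs, with LPS arrays in red left of control arrays in blue and lines at the group means. The LPS arrays lie 0.18 above the control mean for miR-29a-3p minus miR-29c-3p with no overlap, and within or near the control spread for the other pairs.

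For miR-29a-3p the choice of probe moved the change by more than the guide arms differed from each other. The 20-base probe of miR-29a-3p gave the change of 1.66 above, and its 19-base probe gave 2.00 (SE 0.05). The 19-base probe had signals of 3517, 4526 and 4467 on the LPS arrays, against 202, 238 and 228 on the control arrays. For miR-29c-3p the 22-base probe gave 1.48 and the 21-base probe 1.41 (SE 0.07), with signals of 880, 1194 and 1167 on the LPS arrays, against 81.0, 89.9 and 87.9 on the control arrays. For miR-29b-3p the 21-base probe gave 1.55. Its 20-base probe had 109, 162 and 158 on the LPS arrays, against 14.9, 13.4 and 14.0 on the control arrays, where it was not well above background, so its change is not read. The 5 guide-arm probes that were well above background on all 6 arrays were each called higher in a limma fit over 955 probes, in which 53.5% of probes were. Probes of 1 miRNA share the same RNA sample and are not replicates.

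A different summary in the scanner files turned miR-29b-3p round. The files give each probe a total and each miRNA a gene total. For miR-29b-3p the gene totals were 381, 473 and 473 on the LPS arrays, against 215, 240 and 238 on the control arrays. On the LPS arrays they equalled the sum of the probe totals, and on the control arrays that sum was 21.7, 25.5 and 26.3. On each control array 1 of its 2 probes exceeded 3 times its error, and this probe had a total of 18.5, 22.6 and 23.3. The rest of the gene total, 197, 218 and 214, was the gene total of miR-29a-3p on the same array. The LPS to control ratio of miR-29b-3p was thus 1.91 from gene totals and 18.1 from probe sums, unscaled. For miR-29a-3p and miR-29c-3p every probe passed on every array, and both sums gave the same ratios, 21.4 and 17.5. The file headers give an effective feature size of 0.812 to 0.829 for the LPS arrays and 0.6 for the control arrays, and its part in these totals was not tested. After scaling, the gene totals gave miR-29b-3p a log2 change of -1.42, lower in LPS exosomes, and the probe sums one of 1.31.

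**Figure D4:**
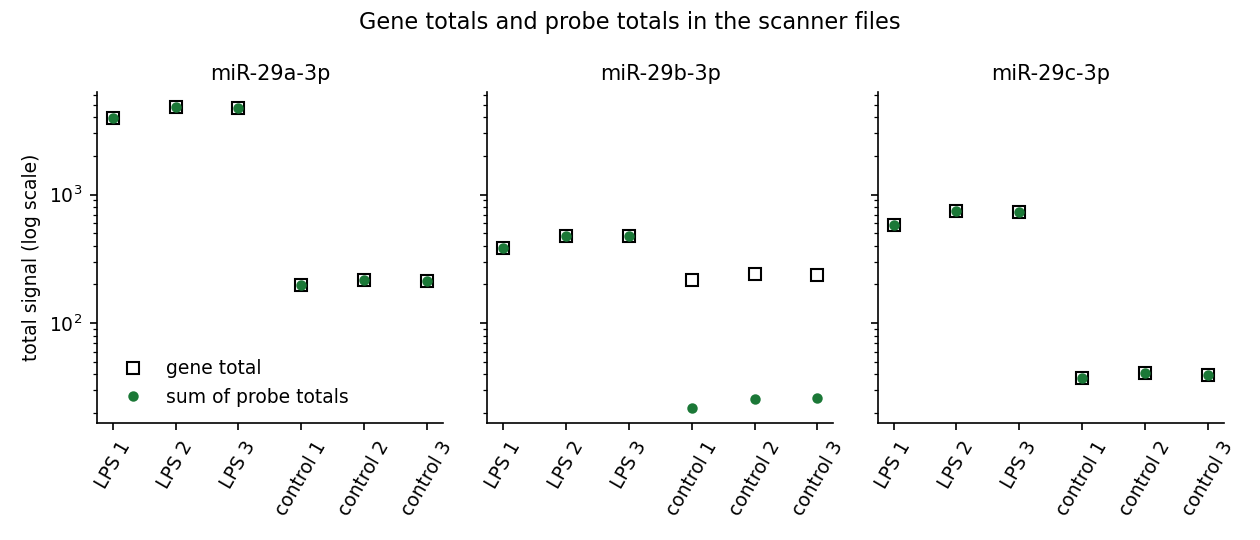
Gene total (open squares) and sum of probe totals (green points) of the 3 guide arms on each array (signal on a log scale, LPS arrays left of control arrays). The marks coincide for miR-29a-3p and miR-29c-3p, and for miR-29b-3p the gene totals of 215 to 240 on the control arrays stand above probe sums of 21.7 to 26.3.

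The passenger arms showed the same carry-over in their totals. miR-29b-1-5p had gene totals of 3945, 4815 and 4735 on the LPS arrays, where its passing probes summed to 11.1, 9.77 and 11.5. On LPS 1 and LPS 3 the excess was the total of miR-29a-3p. On LPS 2 it was the total of miR-29a-5p, 4805, which itself held that of miR-29a-3p. The other arm of Mir29c, miR-29c-5p, carried the total of miR-29c-3p on LPS 1 and LPS 3, with 589 and 737, and had 19.6 on LPS 2, where both its probes passed. Over all miRNAs, none of the 139 to 322 per array whose probes all passed had a gene total that differed from the probe sum. Of the 72 to 124 per array with only some probes passing, 61 to 116 did. Gene totals were therefore not used for the values above.

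The passenger arms themselves were at the edge of detection. mmu-miR-29a-5p was detected on LPS 2 alone and well above background on no array, with processed signals of 15.8, 24.8 and 19.8 on the LPS arrays and 14.8, 11.2 and 9.91 on the control arrays, so it was not tested. mmu-miR-29b-1-5p was detected and well above background on all 3 LPS arrays and on no control array, with 61.8, 71.5 and 62.3 against 13.9, 12.9 and 15.3. Only its longest probe, of 22 bases, was well above background. The scaled change was -0.01 (SE 0.11, limma adjusted p = 0.923), and because the control arrays were dim, no fold bound above 1 can be given and its direction is not read. Its unscaled values did not overlap, on arrays that differed in brightness as given above.

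The arms that tell the loci of miR-29b apart left the question of its source unanswered. miR-29b-1-5p, from chromosome 6, was measured as above. miR-29b-2-5p, from chromosome 1, was detected on no array, with processed signals from -2.80 to 3.89. miR-29c-5p, from the same transcript region, was detected on the 3 LPS arrays and well above background on 2, with 34.8, 42.5 and 38.5 on the LPS arrays and 8.04, 6.46 and 4.90 on the control arrays. Its scaled change of 0.38 (limma adjusted p = 0.143) has no bound above 1 and is not read.

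By the root mean square difference of log2 deviations over the 6 arrays, the 5 miRNAs most like miR-29a-3p, of 195 others detected on all arrays, were miR-18a-5p (0.029), miR-361-5p, miR-106b-5p, miR-3473b and miR-23b-3p (0.048). miR-18a-5p belongs to the miR-17-92 cluster and miR-106b-5p to its paralogue, both known to promote proliferation. Their changes ran between 1.60 for miR-3473b and 1.74 for miR-361-5p and miR-106b-5p. These lie close to the change of miR-29a-3p because the miRNAs were chosen for likeness to it. miR-29b-3p stood 0.087 from miR-29a-3p, with 13 of the 195 closer, and miR-29c-3p 0.095, with 15 closer. With 6 arrays in 2 groups this likeness is mostly the size of the change.

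Myc is known to repress miR-29 together with other miRNAs, among them the let-7, miR-26 and miR-30 families. Of 18 miRNAs in a list of such targets, 17 were tested, and all 17 were called higher and none lower, beside 65.5% higher over all tested. The number called higher was 12 with normexp, where 113 of all 412 tested miRNAs were. It was 15 with gene totals, where 273 of 412 were, and 16 with well above background as detection, where 170 of 358 were. Of the 17, 12 were detected on all 6 arrays, and all 12 were called higher, beside 58.1% of miRNAs so detected. The rest were detected on the LPS arrays alone, so they passed the filter only through the group where they are high. 7 of the 17 were not well above background on any control array, so their changes are bounds. The median change of the other 10, which were well above background on all 6 arrays, was 1.52, against 0.82 over the 162 tested miRNAs of that kind. miR-150-5p was detected on no array. let-7g-5p, a brake on growth genes in many tissues, had the largest change among these 10, 2.39 (SE 0.04, limma adjusted p = 2.14e-08), with log2 values of 10.34, 10.26 and 10.30 in LPS exosomes and 7.93, 7.88 and 7.93 in control exosomes. miR-22-3p had the smallest change among them, 0.83 (SE 0.04, limma adjusted p = 1.03e-06). Of those not well above background in control exosomes, miR-26b-5p was at least 5.14-fold higher and miR-30e-5p at least 1.46-fold higher as scaled here. These bounds hold for that scaling alone. The log2 changes of miR-26b-5p and miR-30e-5p were 1.97 and 0.30 with quantile normalization, and 4.60 and 3.02 without scaling. For miR-195a-5p and miR-497a-5p which are counted among the 17, no bound above 1 could be given, so their direction is not read.

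miR-148a-3p, miR-148b-3p and miR-152-3p share a seed and are known to act on Dnmt1, as miR-29 does on Dnmt3a and Dnmt3b. miR-148b-3p was the only one detected, at 8.25, 8.44 and 8.42 in LPS exosomes against 7.47, 7.42 and 7.41 in control exosomes. Its change of 0.94 (SE 0.06, limma adjusted p = 8.49e-06) was past the threshold and smaller than those of the guide arms.

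The miRNAs of other sources were few. None of 7 mesenchymal and muscle miRNAs was detected on any array, nor were 4 of 5 serum and erythroid and 5 of 6 epithelial ones. The remaining members of these lists, miR-192-5p and miR-200c-3p, were called higher, beside 65.5% of all tested miRNAs. They were detected on the LPS arrays alone, so they passed the filter only through the group where they are high. miR-192-5p was at least 1.02-fold higher as scaled here, a bound so near 1 that it depends on the scaling. miR-200c-3p, without a bound above 1, is not given a direction. The summed scaled signals of these lists, in the order above, were 7.13 to 12.9, 92.5 to 98.1 and 28.2 to 33.8 in LPS exosomes. In control exosomes they were 45.9 to 53.5, 82.4 to 101 and 22.7 to 37.4. Most of these miRNAs were undetected, so the sums are largely background. Background was divided by 1.97 to 2.28 on LPS arrays and by 0.419 to 0.496 on control arrays, so these sums are not compared between groups. The 3 macrophage and blood miRNAs, miR-223-3p, miR-142a-3p and miR-155-5p, were detected on all 6 arrays and called higher, beside 58.1% of miRNAs so detected. Their changes were 1.08 for miR-223-3p, 0.68 for miR-142a-3p and 4.18 for miR-155-5p, a miRNA known to be induced by LPS in macrophages. They had a summed scaled signal of 1773 to 1855 in LPS exosomes and 247 to 270 in control exosomes. The part of these lists in the change of the guide arms was not tested.

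**Figure D5:**
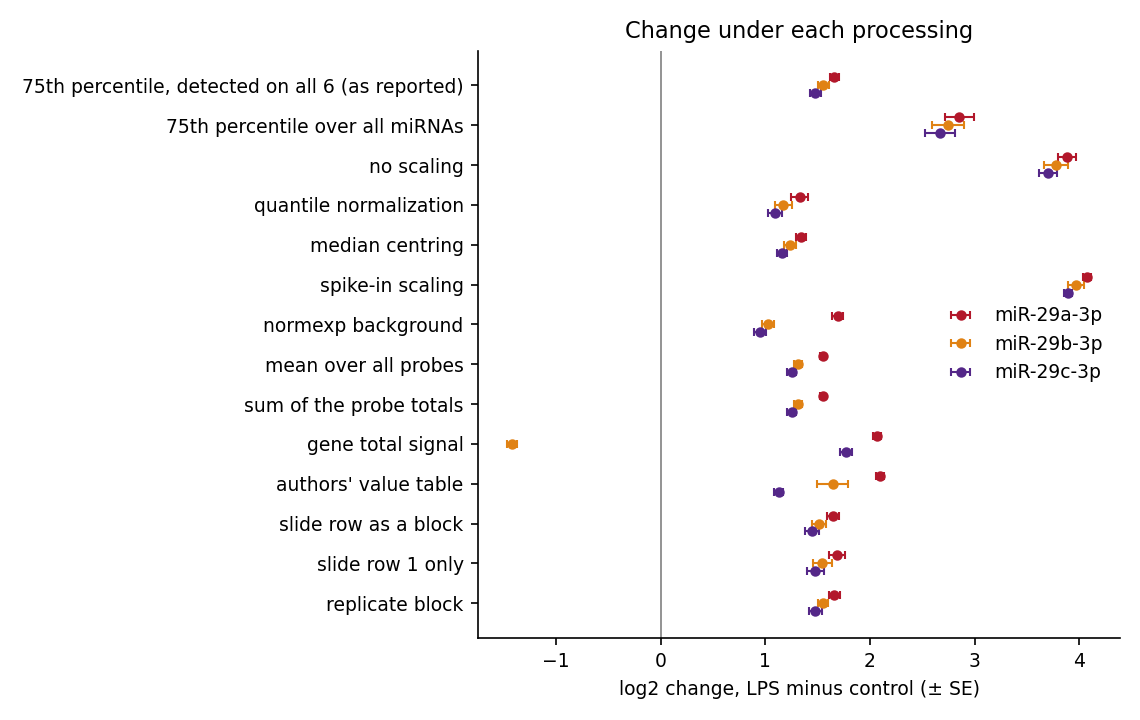
Log2 change, LPS minus control, with its SE (horizontal axis) of miR-29a-3p, miR-29b-3p and miR-29c-3p under 14 ways of processing the arrays (vertical axis). All 3 guide arms lie above 0 under each, from 0.95 to 4.07, except miR-29b-3p with gene totals at -1.42.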

How the data were processed

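The members and lists were chosen with earlier results of these data known. The authors deposited each array's scanner output as linear intensity values, background-subtracted by Agilent Feature Extraction 10.7.1.1 per the file headers; the submitters' processing notes name version 9.1. They also deposited a log2 value table (its normalization was not given in the sources) that served as an alternative. Per the labels' protocols, Cy3-labelled cRNA was hybridised. Spots of a probe were averaged on processed signal, without outlier spots, and the brightest probe stood for its miRNA. Arrays were scaled to the 75th percentile of miRNAs detected on all arrays, floored at the median over arrays of the lowest detected value, and fitted with limma 3.58.1 in R 4.3.3 with Benjamini-Hochberg adjustment. A bound sets the bright group's mean scaled signal against the dim group, and holds for this scaling alone. Each array of the dim group was taken at its own signal or at its lowest signal well above background, whichever is higher. All members were named, with the other arms, the highest 2 and lowest 2 fitted changes of the Myc list, the Dnmt list and the 5 most alike miRNAs. miR-195a-5p, miR-497a-5p, miR-150-5p, miR-192-5p, miR-200c-3p and the macrophage and blood miRNAs were named after their values were seen. The fit was tested on simulated data. Alternatives covered scaling, background, probe summary, filter, floor, variance, replicate block, slide row and leaving out each array; the sum of probe totals was added after seeing the data.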

Additional observations from a re-analysis of the deposited data

How the results depend on the processing

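miR-29a-3p and miR-29c-3p were higher under all 26 alternatives, from 1.33 to 4.07 and from 0.95 to 3.89. Floor, variance, replicate-block and most filter settings left them at 1.66 and 1.48, and constant scaling moved the median change alike. The slide-row fits set 1 LPS array against 3 controls, in row 1 assumed to vary like them. miR-29b-3p was higher under 25, and reversed to -1.42 with gene totals, which on the control arrays held that of miR-29a-3p. The replicate numbers did not pair the arrays (same-number correlations of -0.40, -0.22 and -0.28), and the replicate block gave 270 higher and 110 lower calls. Leaving out each array gave 1.60 to 1.67 for miR-29a-3p, 1.43 to 1.60 for miR-29b-3p and 1.43 to 1.49 for miR-29c-3p. Lower calls over all miRNAs were 59 with the percentile over all miRNAs, 39 without scaling, 38 with spike-in scaling, 284 with normexp and 269 without a filter. Higher calls were 113 with normexp, 115 among miRNAs detected on all 6 arrays, where fewer were tested, and 170 with well above background as detection. Of all calls 71.1% were higher as reported, 85.1% with the percentile over all miRNAs, 90.3% without scaling, 90.7% with spike-in scaling, 28.5% with normexp and 48.7% without a filter. The excess of miR-29a-3p over miR-29c-3p was 0.24 with quantile normalization, 0.74 with normexp, 0.30 with the mean over probes, gene totals or probe sums, and 0.97 in the authors' value table. Over miR-29b-3p it was 0.67 with normexp, 0.24 with the mean over probes or probe sums, 3.48 with gene totals and 0.45 in the value table. miR-29c-3p against miR-29b-3p changed by 3.19 with gene totals and -0.51 in the value table. Near the floor, miR-29b-1-5p turned to 1.18 with the percentile over all miRNAs, 1.79 without scaling, 0.049 with quantile normalization, 1.80 with spike-in scaling, 8.33 with gene totals, 0.051 with a block for slide row and 0.085 in row 1, and ran from -0.12 to 0.050, including 0.038 without control 3, when an array was left out. It was called lower at -0.84 with normexp, -1.29 with the mean over probes, -1.35 with probe sums and -0.33 with median centring. miR-29c-5p turned to -0.71 with normexp and -0.076 with the mean over probes or probe sums, and was called higher at 1.07 with the percentile over all miRNAs, 1.03 without scaling, 0.92 with quantile normalization, 1.04 with spike-in scaling, 0.69 in the value table and 0.53 without control 1. miR-30e-5p turned to -0.43 with normexp and -2.002 with gene totals, which also turned miR-26b-5p to -0.65 and miR-148b-3p to -3.42. The dim 20-base probe of miR-29b-3p turned to -0.64 with normexp. Apart from the gene totals of miR-29b-3p and miR-29b-1-5p, and the smaller set of tested miRNAs, the cause was not tested. Signal over background limits the 5p arms: their control values bound no change.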
